A study of Mus musculus with 36 samples.

Results

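The genes described here act in glycolysis, in the making and transport of lactate, and in the step that commits pyruvate to oxidation in mitochondria. They were chosen as a named list of 33 genes, from glucose transporters to pyruvate dehydrogenase, and a probe was kept where its detection p was under 0.01 on at least 1 array. The detection p compares a probe with the negative control beads of the same array, and a probe at that threshold or above on an array is called undetected there. Of the 33 genes, 31 had a probe on the array and 29 had a kept probe, out of 15556 gene symbols with a kept probe. Hk2 and Ldhb had no probe under their symbol and were not analysed here, and Pgm1 and Slc16a1 were detected on none of the 36 arrays. The 31 genes had 50 probes, 43 of them kept, and 20 of the 29 tested genes were detected on all 36 arrays by the probe with the highest mean, which stands for the gene below.

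Tissue pieces of wildtype MF1 mouse embryos were cut by hand, pooled (6 to 74 pieces a sample) and measured on MouseWG-6 v2.0 arrays of Illumina, to profile regions with and without neuromesodermal progenitors, the cells that give rise to both spinal cord and mesoderm during axis elongation. At E7.5 (headfold stage) the regions were anterior (A, 3 arrays), posterior (P, 2 arrays) and proximal posterior (PP, 2 arrays). At E8.5 (2 to 5 somites) they were the rostral node (RN, 2 arrays), the node-streak border (NSB, 3 arrays), the caudal lateral epiblast (CLE, 3 arrays) and the most rostral and most caudal parts of the primitive streak (St1 and St5, 2 arrays each). From E9.5 the chordo-neural hinge (CNH) of the tail bud was taken at E9.5, E10.5, E12.5 and E13.5 (2 arrays each) and E11.5 (3 arrays), with the tissue posterior to it (P-CNH, 2 arrays each) at E9.5, E10.5 and E11.5. No treatment or mutation was used in any of the 16 regions.

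Glycolysis splits glucose into pyruvate. Lactate dehydrogenase turns pyruvate into lactate, which leaves the cell through monocarboxylate transporters, while pyruvate dehydrogenase feeds pyruvate into the tricarboxylic acid cycle, and the pyruvate dehydrogenase kinases (Pdk genes) hold that enzyme back. In chick and mouse embryos glycolytic activity is graded along the elongating axis and is highest in the tail bud, and in many cell types low oxygen raises transcription of these genes through HIF1.

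The arrays were run in 3 batches of 12, which limits what can be compared. Batch 1 holds every array of RN, St1, St5 and the E10.5 regions together with NSB replicates 1 and 2, and the other regions lie in batches 2 and 3. The number of detected probes per array ran from 15481 to 16256 in batch 1, from 11062 to 15388 in batch 2 and from 10814 to 16241 in batch 3. Replicates of a region differed by a root mean square of 0.241 to 0.264 on the log2 scale in batch 1 and of 0.197 to 1.34 elsewhere. NSB is the only region that links batch 1 to the other batches. NSB replicate 3 (batch 3) stood above the mean of replicates 1 and 2 by 2.78 for Slc16a3 and by 0.94 for Eno3, and below it for Pdhb (-2.63). The median size of that shift was 0.29 over the 29 genes and 0.51 over all tested probes. Outside batch 1 replicates of a region pooled different numbers of pieces. In batch 1 both replicates have the same number (45 or 17), and the labels do not say whether these are separate pools. The p-values thus measure only spread between samples of this kind. For each probe a fit shares that spread over all its regions, so it is not the spread of the regions compared. Replicates differed by 1.34 in E13.5 CNH and by 0.197 in E9.5 CNH. Where replicates differ more than the shared spread, a p-value can be too small, and where they differ less, too large.

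Region markers were checked against the labels. Of 5 notochord and node genes, 4 were higher in RN and 4 in NSB than in the other E8.5 regions, with log2 differences for Shh of 4.01 and 3.30. In CNH against P-CNH, 3 of the 5 were higher, Shh by 5.13, Noto by 3.26 and Foxa2 at least 2.67-fold (undetected in P-CNH). Of 2 anterior neurectoderm genes, both were higher in E7.5 A than in P (Otx2 2.47, Pou3f1 1.69), and the presomitic gene Tbx6, undetected in A, was at least 25.9-fold lower. A bound of this kind sets undetected arrays to the lowest detected value of the array.

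Levels are log2 intensities after background correction and quantile normalisation, in which 1 unit is a doubling. Differences come from a limma fit with region and batch as terms, and a gene was called where the p-value adjusted over all 21712 tested probes was at most 0.05 and the fold at least 1.5. Over the 16 regions, 13 of the 29 genes varied by the F test of that fit, against 35.6% of all tested probes. The largest F values were those of Eno3 (25.8, adjusted p 7.31e-09), Slc2a1 (10.3, 1.33e-05), Pdk2 (10.2, 1.42e-05), Pgm2 (7.94, 9.14e-05) and Pdk1 (6.81, 0.000262). The other 8 were Aldoc, Pgam2, Pfkfb4, Slc16a3, Eno2, Pdha1, Pfkfb3 and Gpi1, with F from 3.25 to 5.96. Of these, Pfkfb3 was detected on 1 array alone, in E7.5 A, the region where it was highest, so it was kept through that region and nothing is read from its F. Levels of different genes are not compared, because probes bind with different strength, and the gene named beside a sum of markers is the one with the brightest probe.

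**Figure D1:**
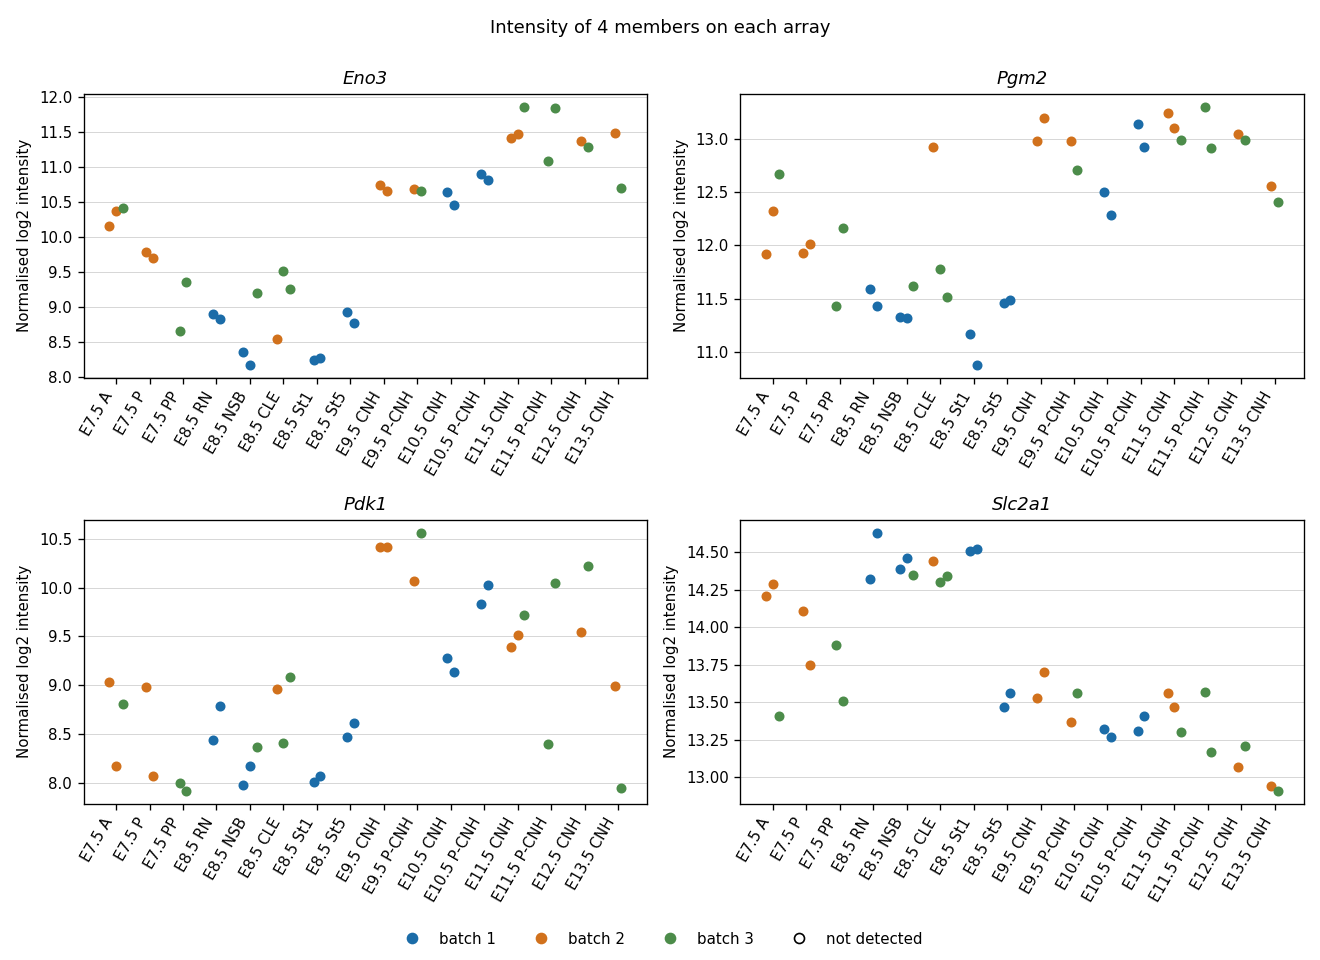
Log2 intensity of Eno3, Pgm2, Pdk1 and Slc2a1 in each of the 36 arrays (points, coloured by batch) over the 16 regions. Eno3 lies between 8.17 and 9.51 in the E8.5 arrays and between 10.46 and 11.86 in the tail bud arrays of E9.5 to E11.5.

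Slc2a1 encodes the glucose transporter GLUT1. At E8.5 its level was 14.32 and 14.63 in RN, 14.39, 14.46 and 14.35 in NSB, 14.44, 14.30 and 14.34 in CLE, 14.51 and 14.52 in St1, and 13.47 and 13.56 in St5. The St5 arrays were thus apart from the other 10 arrays of the stage, which did not overlap with them. At E7.5 it was 14.21, 14.29 and 13.41 in A, 14.11 and 13.75 in P, and 13.88 and 13.51 in PP. In the hinge it was 13.53 and 13.70 at E9.5, 13.32 and 13.27 at E10.5, 13.56, 13.47 and 13.30 at E11.5, 13.07 and 13.21 at E12.5, and 12.94 and 12.91 at E13.5. Both E13.5 arrays were below every other array of the 36.

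Eno3 encodes the beta subunit of enolase, the form known from muscle. At E7.5 its level was 10.15, 10.37 and 10.42 in A, 9.78 and 9.70 in P, and 8.65 and 9.36 in PP. At E8.5 it was 8.90 and 8.82 in RN, 8.36, 8.17 and 9.20 in NSB, 8.54, 9.51 and 9.25 in CLE, 8.24 and 8.27 in St1, and 8.93 and 8.77 in St5. Every E8.5 array was thus below both arrays of E7.5 P, but these levels are not adjusted for batch, and both P arrays lie in batch 2. After batch adjustment the level was 8.94 in P, close to 8.86 in RN and 8.85 in St5. It was 8.26 in NSB, 8.26 in St1 and 8.21 in CLE. In the hinge it was 10.74 and 10.66 at E9.5, 10.64 and 10.46 at E10.5, 11.42, 11.47 and 11.86 at E11.5, 11.37 and 11.29 at E12.5, and 11.48 and 10.70 at E13.5, and in P-CNH 10.69 and 10.65, 10.90 and 10.82, and 11.09 and 11.85 at E9.5, E10.5 and E11.5. All 17 tail bud and later arrays lay above the highest of E8.5.

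Pgm2 is the array's symbol for a phosphoglucomutase, an enzyme between glycogen and glucose 6-phosphate, and current annotation uses it for another gene than older annotation did, so which of the mouse phosphoglucomutases the probe reads was not settled. At E8.5 its level was 11.59 and 11.43 in RN, 11.33, 11.32 and 11.62 in NSB, 12.92, 11.78 and 11.52 in CLE, 11.17 and 10.88 in St1, and 11.46 and 11.49 in St5. CLE replicate 1 stood more than 1 unit above the other CLE arrays. In the hinge it was 12.98 and 13.20 at E9.5, 12.29 in 1 array at E10.5 (mean of both 12.40), 13.24, 13.10 and 12.99 at E11.5, 13.05 and 12.99 at E12.5, and 12.56 and 12.41 at E13.5, and in P-CNH 12.98 and 12.71, 13.14 and 12.92, and 13.30 and 12.91. Of the 12 E8.5 arrays, CLE replicate 1 alone reached into the range of the tail bud arrays.

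Pdk1 encodes a pyruvate dehydrogenase kinase. At E7.5 its level was 9.03, 8.17 and 8.81 in A, 8.98 and 8.07 in P, and 8.00 and 7.92 in PP, and at E8.5 it was 8.44 and 8.79 in RN, 7.98, 8.17 and 8.37 in NSB, 8.96, 8.41 and 9.09 in CLE, 8.01 and 8.07 in St1, and 8.47 and 8.61 in St5. In the hinge it was 10.42 and 10.42 at E9.5, 9.28 and 9.14 at E10.5, 9.39, 9.51 and 9.72 at E11.5, 9.55 and 10.22 at E12.5, and 8.99 and 7.95 at E13.5. The E9.5 hinge arrays were the highest of the hinge and the E13.5 arrays the lowest. In P-CNH it was 10.07 and 10.56 at E9.5, 9.83 and 10.03 at E10.5, and 8.40 and 10.05 at E11.5, where the replicates lay on either side of the E11.5 hinge arrays.

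Pdk2, another kinase of this family, was near the background. It was undetected on all 12 E8.5 arrays (4.55 to 5.20), and in the hinge it read 5.70 and 5.33 at E9.5 and 5.51 and 5.40 at E10.5, undetected on each. It was detected at 6.11 and 6.50 on 2 of the 3 E11.5 hinge arrays (the other read 6.32), at 6.07 on 1 of the 2 E12.5 arrays (the other read 5.47), and at 6.70 and 7.55 on both E13.5 arrays. In P-CNH it read 4.83 and 5.24 at E9.5, 5.00 and 5.40 at E10.5, and 6.47 and 6.18 at E11.5, detected only on the last of these, and at E7.5 it was detected on 1 of 7 arrays, A replicate 3 (6.25).

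**Figure D2:**
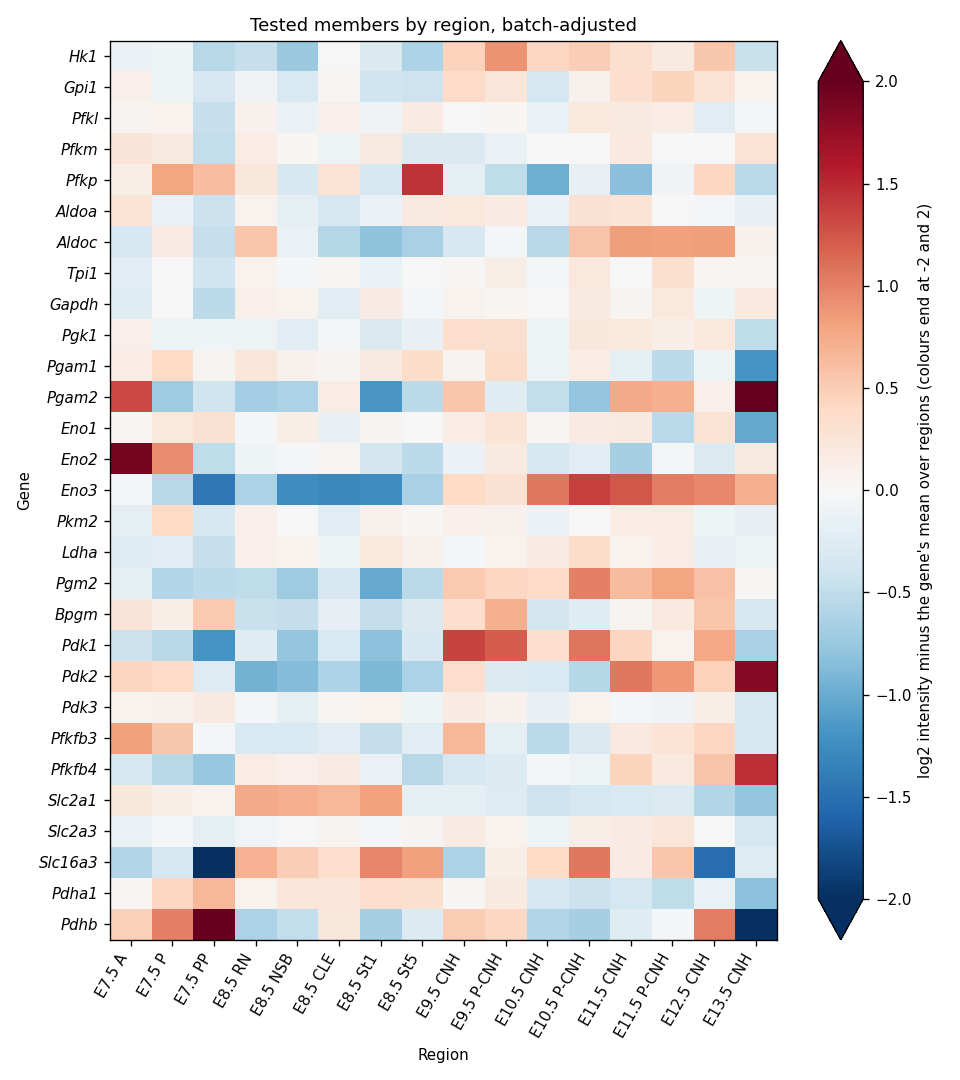
Heat map of the 29 genes over the 16 regions, in batch-adjusted log2 intensity minus the gene's mean over regions, with colours that end at -2 and 2. Eno3, Pgm2 and Pdk1 are lower in the E8.5 columns than in the tail bud columns, and Slc2a1 is higher in the E8.5 columns other than St5.

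Members that differed between E8.5 and the tail bud have upstream sequence in the RefSeq promoter table (build GRCm38.p6), and the 250 bases before the start are shown for Eno3, Slc2a1 and Pdk1 because these were called in several comparisons; Pgm2, called as often as Slc2a1, is not shown because its symbol is ambiguous. Capitals mark ACGTG or GCGTG on either strand (CACGT or CACGC on the strand shown), the core letters that HIF1 is known to bind. Eno3 is at chr11:70656926-70657175, Slc2a1 at chr4:119108495-119108744, and Pdk1 has 2 listed starts, with windows chr2:71872974-71873223 and chr2:71874654-71874903, all on the + strand.
Eno3: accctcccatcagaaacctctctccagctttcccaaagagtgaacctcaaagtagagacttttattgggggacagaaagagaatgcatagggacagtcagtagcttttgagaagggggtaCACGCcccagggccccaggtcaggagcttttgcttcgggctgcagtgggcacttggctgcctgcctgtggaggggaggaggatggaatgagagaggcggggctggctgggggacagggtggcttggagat
Slc2a1: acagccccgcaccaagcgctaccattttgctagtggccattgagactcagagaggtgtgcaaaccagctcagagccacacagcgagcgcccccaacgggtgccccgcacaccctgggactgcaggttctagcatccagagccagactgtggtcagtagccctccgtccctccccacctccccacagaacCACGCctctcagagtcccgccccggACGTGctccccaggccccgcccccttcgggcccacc
Pdk1 start 1: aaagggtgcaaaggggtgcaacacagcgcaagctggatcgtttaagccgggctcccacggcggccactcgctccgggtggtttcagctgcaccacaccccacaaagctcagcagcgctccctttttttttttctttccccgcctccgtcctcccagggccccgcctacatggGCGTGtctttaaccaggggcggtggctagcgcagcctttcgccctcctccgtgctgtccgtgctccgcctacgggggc
Pdk1 start 2: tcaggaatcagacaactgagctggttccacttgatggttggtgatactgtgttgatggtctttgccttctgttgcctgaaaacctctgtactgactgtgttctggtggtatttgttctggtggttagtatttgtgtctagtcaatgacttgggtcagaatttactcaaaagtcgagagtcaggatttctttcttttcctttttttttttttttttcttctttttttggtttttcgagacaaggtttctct
Eno3 held 1 match, 130 bases upstream, Slc2a1 held 2, at 61 and 36 bases, and Pdk1 held 1 at its first listed start (78 bases) and 0 at its second. Of the 33 genes, 32 were in the table (Slc2a3 was not), and 27 of them (84.4%) had a match at any listed start, against 11226 of 27025 genes (41.5%). With a match asked of every listed start the counts were 21 of 32 (65.6%) and 9527 of 27025 (35.3%), and 31.2% of the 32 had several starts against 15.4% of all genes. Of other genes described below, Pgam2, Gpi1 and Eno2 had 0 matches and Pfkfb4 and Pgm2 had 1 each. Pgk1 and Slc16a3 had 2 each, and Pfkp and Pdha1 3 each. With 2 listed starts, Aldoc had 1 and 1, Pdk2 had 2 and 0, and Hk1 had 0 and 3. Among genes called in no comparison of the fit of all arrays, Ldha had 5 and 1 at its 2 starts, Pdk3 had 4, Gapdh had 2, and Tpi1 and Bpgm had 0. All marked words contain CG, and base content was not matched between the 32 genes and all genes. A match is a description of the letters, not a binding site, and the 33 genes were chosen from a pathway known to respond to low oxygen.

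The tail bud was compared with E8.5 to ask what differs once the axis elongates from a tail bud instead of from the streak (mean of the 6 CNH and P-CNH regions of E9.5 to E11.5, 13 arrays, minus the mean of the 5 E8.5 regions, 12 arrays). Of the 29 genes, 5 were called, against 13.1% of all tested probes. Higher were 4 genes (6.98% of probes) and lower was 1 (6.09%). The median log2 difference was 0.11 over the 29 genes and 0.02 over all tested probes, and 23 of the 29 were positive.

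For Eno3 the lowest, median and highest levels were 10.46, 10.82 and 11.86 in the tail bud arrays and 8.17, 8.80 and 9.51 in the E8.5 arrays. All 13 were above all 12. The log2 difference was 1.91 (SE 0.193, 95% interval 1.51 to 2.31, adjusted p 1.75e-07), a 3.76-fold rise. In batch 1 alone, where E10.5 CNH and P-CNH were compared with RN, NSB, St1 and St5, it was 2.14 (adjusted p 1.25e-09), and in batches 2 and 3 alone, where E8.5 is CLE and NSB replicate 3, it was 2.01 (5.28e-05). In bulk tissue, fewer cells of a type and less RNA per cell cannot be told apart.

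Pgm2 had 12.29, 12.98 and 13.30 in the tail bud arrays and 10.88, 11.48 and 12.92 at E8.5. The groups overlapped through CLE replicate 1. The log2 difference was 1.24 (SE 0.206, adjusted p 0.000122), or 2.36-fold, with 1.38 in batch 1 alone (1.21e-07) and 1.10 in batches 2 and 3 alone (0.012). A second probe of Pgm2 gave 1.18 (0.00713). Pdk1 had 8.40, 9.83 and 10.56 in the tail bud arrays and 7.98, 8.42 and 9.09 at E8.5. The overlap came from E11.5 P-CNH replicate 1. The log2 difference was 1.24 (SE 0.277, adjusted p 0.00273), with 1.25 in batch 1 alone (4.06e-07) and 1.31 in batches 2 and 3 alone (0.0257).

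Slc2a1 was the member that fell, with 13.17, 13.41 and 13.70 in the tail bud arrays and 13.47, 14.37 and 14.63 at E8.5. The groups overlapped only through the St5 arrays. Its log2 difference was -0.85 (SE 0.15, adjusted p 0.000243), with -0.91 in batch 1 alone (1.51e-06) and -0.95 in batches 2 and 3 alone (0.0042), and with cyclic loess, another way to scale arrays to each other, it was -1.38. The calls of Eno3, Pgm2, Pdk1 and Slc2a1 held in all 14 alternative settings and for each of the 35 arrays that could be left out. Leaving out NSB replicate 3 gives no value, since it joins batch 1 to the others.

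Pdk2 was called (adjusted p 0.000558), with 4.83, 5.51 and 6.50 in the tail bud arrays and 4.55, 4.90 and 5.20 at E8.5. It was detected on 3 of 13 and 0 of 12 arrays, the groups overlapped, and no fold is given because most arrays were at the background, from which the fitted difference of 0.98 is measured. The call was lost with no background correction (0.56), with an offset of 100 in place of 16 (0.33), with cyclic loess (0.53) and in batch 1 alone (0.40), and it was kept in batches 2 and 3 alone (0.00174).

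In batch 1 alone, 7 of the 29 genes were called in the E10.5 against E8.5 comparison, against 18.7% of all tested probes. Beside Eno3, Pgm2, Pdk1 and Slc2a1 these were Hk1, Pfkp and Pdha1. Hk1, a hexokinase that starts glycolysis, read 6.08 and 5.94 in E10.5 CNH and 5.85 and 6.30 in P-CNH, and it was undetected on all 8 E8.5 arrays of the batch, so that no fold is given (adjusted p 6.27e-06). In the fit of all 36 arrays, where it was detected on 7 of 13 tail bud and 1 of 12 E8.5 arrays, Hk1 was not called (0.88, adjusted p 0.0629). Pdha1, a subunit of pyruvate dehydrogenase, read 11.22 and 11.17 in E10.5 CNH and 10.94 and 11.24 in P-CNH, all below the 8 E8.5 arrays of the batch (11.56 to 11.92). Its difference was -0.63 in batch 1 alone (3.16e-05) and -0.49 in the whole fit (0.116, not called).

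Of the 24 genes not called in the whole fit, Gpi1 passed the p threshold at a smaller fold (0.42, adjusted p 0.0189). For Pfkp, the platelet-type phosphofructokinase, a dimmer probe detected on 4 arrays was called (-0.59, 0.0319), while the representing probe was not (-0.72, 0.326). Many of the enzymes of the trunk of glycolysis gave bright probes, and for 8 genes (Eno1, Ldha, Tpi1, Pkm2, Gapdh, Slc2a3, Slc2a1 and Pgk1) the median intensity was 39.6% to 79.3% of the brightest probe of the array, where a difference can be compressed. The probes of Eno1, Gapdh, Pgam1 and Ldha may also bind transcripts of related gene copies, which was not tested.

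**Figure D3:**
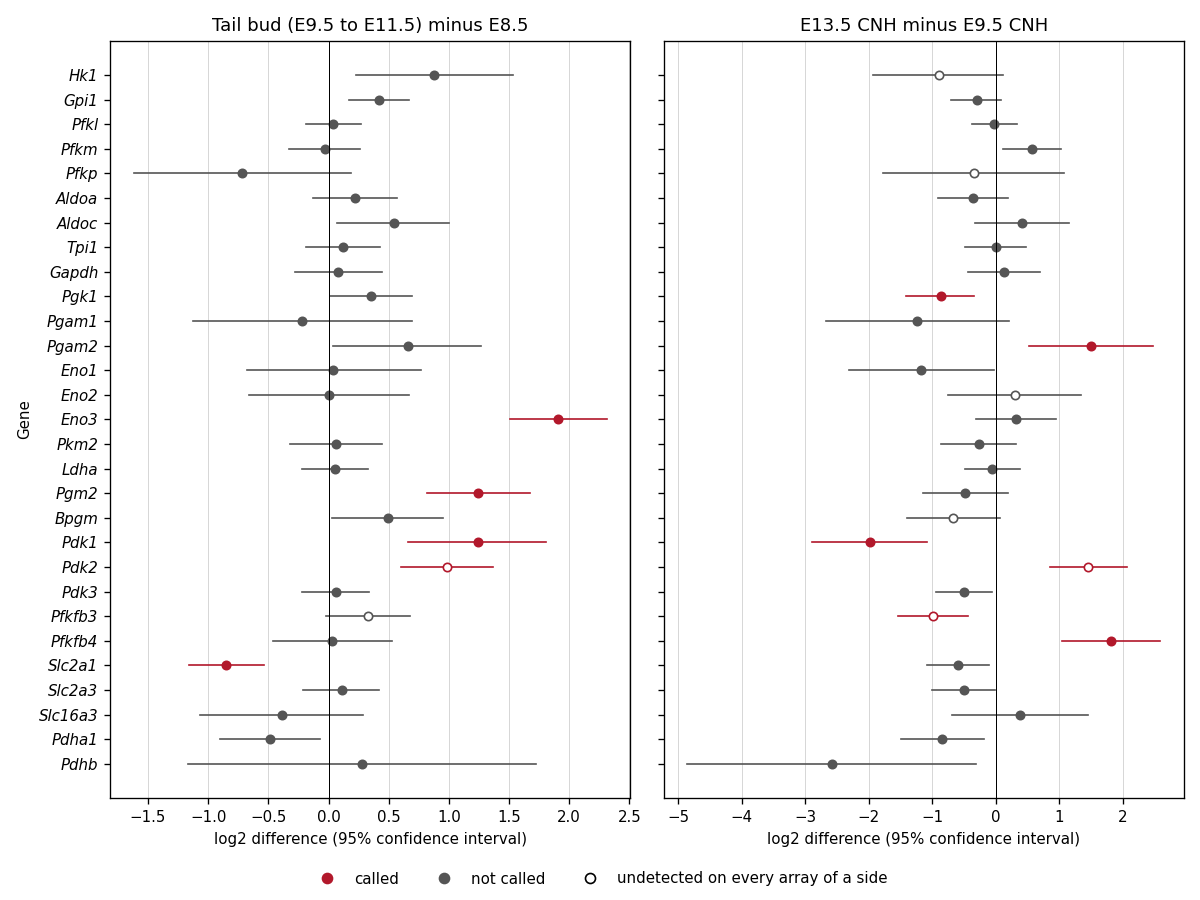
Log2 difference (points) with its 95% confidence interval (lines) for the 29 genes, for tail bud minus E8.5 and for E13.5 CNH minus E9.5 CNH. Red marks called genes, and open points mark genes undetected on every array of a side; Eno3 is at 1.91 on the left and Pdk1 at -1.98 on the right.

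Blood markers moved with the same comparison. Of 6 blood genes, 4 were higher in the tail bud (median log2 difference 3.19), Hba-x by 4.40, Hbb-bh1 by 3.23, and Hbb-y, which was detected on 13 of 13 and 2 of 12 arrays. Their summed intensity had a lowest, median and highest value of 4140, 29300 and 46100 in the tail bud arrays, with the probe of Hbb-y brightest, and of 194, 1460 and 9100 at E8.5, with the probe of Hbb-b1 brightest. Of 7 visceral endoderm genes, 3 were lower (median -0.86), with sums of 217, 266 and 489 in the tail bud and 281, 1260 and 3080 at E8.5. Of 4 neuron genes Stmn2 was lower (-3.57), and their sums did not overlap, with 131, 212 and 333 in the tail bud and 686, 1170 and 1920 at E8.5. Of 2 neural genes Nkx1-2 was lower (-1.41), with sums of 193, 652 and 1260 against 447, 1960 and 2610, and of 5 surface ectoderm genes 1 was called higher, Trp63, detected on 4 tail bud arrays and 0 at E8.5. Both anterior neurectoderm genes were lower, Pou3f1 at least 2.93-fold. Their part in the differences of the glycolysis genes was not tested.

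Genes around the pathway were counted in the same way. Of 14 targets of low oxygen outside glycolysis, 4 were higher in the tail bud and 0 lower, with a median of 0.39, against 6.98% of all tested probes higher: Bhlhe40 (adjusted p 2.12e-11), detected on 13 of 13 and 1 of 12 arrays, Mxi1 by 1.16, Kdm3a by 0.67, and Car9, which was detected on 4 tail bud arrays, 0 at E8.5 and 5 in all, so that it was kept mostly through the tail bud and has no fold. The number called in either direction was 7 in batch 1 alone, where 18.7% of all tested probes were called, and 7 with the 4 arrays of fewest detected probes left out. For the latter setting the share of all tested probes is not given here, so nothing is read from that count. By limma, 0 of the 3 low-oxygen regulators tested were called (1 at an unadjusted p under 0.05), 0 of 14 tricarboxylic acid cycle genes (1), 0 of 5 genes of pyruvate entry into mitochondria (0) and 0 of 3 gluconeogenesis genes (0). Of 8 pentose phosphate genes, Rpia was called (0.63), and of 7 growth regulators of glycolysis, Mlxipl (1.18). Of 11 other isozymes, Ldhc, a lactate dehydrogenase known from the testis, was called. It was detected on 12 of 12 E8.5 arrays and on 0 of 13 tail bud arrays, at least 4.44-fold lower in the tail bud.

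The headfold was compared with E8.5 as the stage before. Of the 29 genes, limma called 0 (E7.5 minus E8.5), against 3.15% of all tested probes, and 3 had an unadjusted p under 0.05: Pdk2 (adjusted p 0.0793), Pfkfb3 and Slc16a3 (-1.73, 0.077). Pdk2 and Pfkfb3 were each detected on 1 of the 7 E7.5 arrays and on 0 of the 12 E8.5 arrays, so no fold is given for them, and nothing is read from Pfkfb3, which that E7.5 array alone kept in the test. The medians were 0.12 over the 29 genes and 0.05 over all tested probes. The count was 1 without E12.5 CNH replicate 1 or 2, CLE replicate 1, E9.5 P-CNH replicate 1 or 2, or PP replicate 2. It was also higher in several alternative settings, listed at the end. Slc16a3, the lactate exporter MCT4, read 6.40 and 6.70 in NSB replicates 1 and 2 and 9.33 in replicate 3, so that its differences between regions rest on the batch term. Of the 7 visceral endoderm genes, 5 were higher at E7.5, with sums of 2100, 10800 and 37700 in the E7.5 arrays and the probe of Ttr brightest. Of 6 blood genes 1 was called lower at E7.5 (median -2.05). Blood sums were 201, 333 and 2100 in the E7.5 arrays and 194, 1460 and 9100 at E8.5. The part of both lists was not tested.

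E9.5 CNH was set against E7.5 P, the posterior tissue before it, with all 4 arrays in batch 2. Of the 29 genes, 3 were called, against 9.27% of all tested probes, with medians of 0.05 and 0.03. Pdk1 read 10.42 and 10.42 in E9.5 CNH and 8.98 and 8.07 in E7.5 P, Eno3 10.74 and 10.66 against 9.78 and 9.70, and Pgm2 12.98 and 13.20 against 11.93 and 12.01. For all 3, both hinge arrays were above both headfold arrays.

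Pdk1 rose by 1.90 (SE 0.422, adjusted p 0.00411), or 3.72-fold, a call that was lost without P replicate 2 (1.44). Pgm2 rose by 1.12 (SE 0.314, adjusted p 0.0242), and its call was lost with cyclic loess (1.01), in batches 2 and 3 alone (1.12), and without P replicate 1 (1.08) or 2 (1.16) or E9.5 CNH replicate 1 (1.23) or 2 (1.01). Eno3 rose by 0.96 (SE 0.295, adjusted p 0.0415), close to the threshold. Its call was lost with no batch term, with no filter on dim probes and in batches 2 and 3 alone (0.96 each), without any of the 12 arrays of batch 1 (0.96 each), and without P replicate 1 (1.00) or 2 (0.92) or E9.5 CNH replicate 1 (0.92) or 2 (1.00). Without P replicate 2, 0 of the 29 were called. A dim probe of Pfkp, detected on 4 of the 36 arrays, was called at a fitted difference of -0.91 (adjusted p 0.0423). Its representing probe was not called (-0.97, 0.487). Of the 7 visceral endoderm genes, 5 were lower in E9.5 CNH, and summed blood markers were 37300 and 37800 in E9.5 CNH and 482 and 223 in P; their part was not tested.

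The hinge of the next day was compared with the border that precedes it. In E9.5 CNH minus E8.5 NSB, 2 of the 29 genes were called, against 5.04% of all tested probes, with medians of 0.13 and 0.07. Eno3 read 10.74 and 10.66 in the hinge and 8.36, 8.17 and 9.20 in NSB, and Pdk1 10.42 and 10.42 against 7.98, 8.17 and 8.37. Both hinge arrays were above all 3 NSB arrays for each. Pdk1 rose by 2.12 (SE 0.564, adjusted p 0.0279) and Eno3 by 1.64 (SE 0.394, adjusted p 0.0139). Both calls held in all 12 alternative settings. That of Pdk1 was lost without E9.5 CNH replicate 1 or 2 (2.12 each) and that of Eno3 without E9.5 CNH replicate 1 (1.60). The count was 0 without E9.5 CNH replicate 1 and 4 without CLE replicate 1, and it was higher in several alternative settings, listed at the end. Of 6 blood genes 3 were higher in the hinge (median 3.26), among them Hbb-y, undetected in NSB, with sums of 37300 and 37800 against 3940, 1740 and 1180. Of 5 surface ectoderm genes Cldn4 alone was called, lower (-3.46), with sums of 296 and 320 against 695, 583 and 1080. Members went both ways: 2 of the 5 were positive, Grhl3 the most (1.81, not called), and the median was -0.1. Their part was not tested.

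E10.5 CNH minus E8.5 NSB can be made within batch 1. In the fit of all arrays, 3 of the 29 genes were called, against 7.14% of all tested probes, 2 of them higher (3.54% of probes) and 1 lower (3.60%), with medians of -0.04 and -0.01. Eno3 read 10.64 and 10.46 in the hinge and 8.36, 8.17 and 9.20 in NSB, Pgm2 12.29 in the lower array (mean of both 12.40) against 11.33, 11.32 and 11.62, and Slc2a1 13.32 and 13.27 against 14.39, 14.46 and 14.35. None of the 3 overlapped. Eno3 rose by 2.28 (SE 0.295, adjusted p 8.97e-06), or 4.87-fold, in all 13 settings and without each of the 36 arrays. Slc2a1 fell by 1.14 (SE 0.228, adjusted p 0.00174), with the call lost under cyclic loess (-1.03). Pgm2 rose by 1.07 (SE 0.314, adjusted p 0.0376). Its call was lost with cyclic loess (1.14), with no filter (1.07), with the replicate number as a block (1.07), and without NSB replicate 1 (1.08) or 2 (1.07) or E10.5 CNH replicate 1 (0.97) or 2 (1.17). A second probe of Pgm2 gave 1.25 (0.115, not called).

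In batch 1 alone, 6 of the 29 were called in the same comparison, against 19.7% of all tested probes. Eno3 (2.28), Pgm2 (1.07, adjusted p 1e-04), Pdk1 (1.13, 9.49e-05) and Hk1 (0.000154) were higher, and Slc2a1 (-1.14, 2.55e-05) and Pfkp (0.0139) lower. Both E10.5 CNH arrays were undetected for Pfkp, and both NSB arrays of the batch were undetected for Hk1 (4.73 and 4.98), so that only adjusted p-values are given for these. In the whole fit the count was 5 without E11.5 P-CNH replicate 1 or 2. Summed blood markers were 29300 and 31100 in E10.5 CNH and 3940, 1740 and 1180 in NSB, and their part was not tested. Of 7 visceral endoderm genes 2 were lower (median -0.75), Ttr at least 6.64-fold and Amn at least 4.88-fold, with sums of 243 and 321 against 1190, 702 and 1340, and of 4 neuron genes Stmn2 was lower (-4.15). Their part was not tested either.

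Later hinge stages were compared with E9.5 CNH to follow the tail bud as elongation slows and ends. At E11.5, 1 of the 29 genes was called, against 5.10% of all tested probes, with medians of -0.01 and -0.04. This was Aldoc, an aldolase known from brain, which read 7.46 and 7.64 at E9.5 and 8.72, 8.79 and 9.09 at E11.5. The groups did not overlap, and it rose by 1.16 (SE 0.318, adjusted p 0.0368). The call was lost with BeadChip as a random block (1.21), with the replicate number as a block (1.13), in batches 2 and 3 alone (1.16), and without either E9.5 array (1.07 without replicate 1, 1.24 without replicate 2) or without E11.5 CNH replicate 1 (1.14) or 2 (1.11). The count was 2 without E13.5 CNH replicate 1 or 2 or CLE replicate 1. Of 5 surface ectoderm genes 2 were higher at E11.5, Cldn4 by 2.26 and Trp63, undetected at E9.5, at least 1.15-fold, with sums of 824, 455 and 1010 against 296 and 320. Of the 5, 3 were positive and Grhl3 was the lowest (-1.15, not called). The part of these genes was not tested.

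At E12.5 limma called 0 of the 29 genes, against 4.62% of all tested probes, and 2 had an unadjusted p under 0.05: Aldoc (1.15, adjusted p 0.0678) and Pfkfb4 (0.91, adjusted p 0.214). The medians were -0.11 and -0.04. The count was 1 without P replicate 1 or 2 or CLE replicate 1. Of 5 surface ectoderm genes 3 were higher (Trp63 at least 5.99-fold, Krt14 at least 5.88-fold, Cldn4 by 2.79 on the log2 scale), with sums of 1690 and 1620, and 1 of 6 blood genes was lower, Hbb-bh1 (-2.89). Their part was not tested.

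At E13.5, the last stage, 6 of the 29 genes were called, against 23.0% of all tested probes. The share of genes called, 20.7%, was thus near that of all probes. The medians were -0.35 over the 29 genes and -0.12 over all tested probes. The count was 3 without E9.5 CNH replicate 2 and 10 without E13.5 CNH replicate 1. The E13.5 arrays differed from each other by a root mean square of 1.34 over all probes, the most of all replicate pairs, with a Pearson r of 0.858. The p-values use the spread shared by all regions, so they do not carry this difference in full. Replicate 2 had the fewest detected probes of the 36 arrays (10814), and limma gave both E13.5 arrays its lowest array weight, 0.126. The signal over background was 2.638 and 2.332 in the E13.5 arrays and 5.423 and 6.108 in the E9.5 hinge arrays.

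Pfkfb4 makes and breaks fructose 2,6-bisphosphate, which sets the pace of phosphofructokinase. It read 8.19 and 8.14 at E9.5, 7.90 and 7.84 at E10.5, 9.25, 8.81 and 8.40 at E11.5, 9.36 and 8.41 at E12.5, and 9.61 and 9.97 at E13.5. Both E13.5 arrays were above all other hinge arrays. It rose by 1.82 from E9.5 to E13.5 (SE 0.374, adjusted p 0.00143), or 3.53-fold, and the call was lost only with BeadChip as a random block (1.18). Before background correction and scaling, its intensity was 236 and 278 at E9.5 and 290 and 206 at E13.5.

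Of the 3 Pdk genes tested, 2 were called at E13.5, Pdk1 lower and Pdk2 higher, and Pdk3 was not (-0.50, adjusted p 0.0928). Pdk1 read 10.42 and 10.42 at E9.5 and 8.99 and 7.95 at E13.5, with no overlap, and fell by 1.98 (SE 0.437, adjusted p 0.00251), or 3.96-fold. This call held in all 13 settings and without each of the 36 arrays, with values from -2.72 to -1.43. Pdk2 read 5.70 and 5.33 at E9.5, undetected on both, and 6.70 and 7.55 at E13.5, detected on both, at least 1.89-fold higher. The intensity of Pdk2 before background correction and scaling was 93.1 and 95.8 at E9.5 and 97.9 and 88.1 at E13.5. The rise of Pdk2 thus appears only after those steps. The fitted difference of Pdk2 was 1.46 (SE 0.294, adjusted p 0.0012). That call was lost with cyclic loess (0.56), and the value was 0.78 with no background correction and 0.72 with an offset of 100, both called.

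Pgam2, the muscle form of phosphoglycerate mutase, read 6.36 and 6.42 at E9.5 and 7.15 and 8.32 at E13.5. Both E13.5 arrays were higher, with replicate 2 the higher. It rose by 1.5 (SE 0.468, adjusted p 0.0245), and the call was lost with cyclic loess (0.84), no batch term (1.35), BeadChip as a random block (0.90), the replicate number as a block (1.33), in batches 2 and 3 alone (1.5), and without E9.5 CNH replicate 1 (1.47) or 2 (1.53) or E13.5 CNH replicate 2 (0.76). Without E13.5 CNH replicate 1 it was 2.48, with no background correction 0.92, with an offset of 100 0.88, and with the 4 arrays of fewest detected probes left out 0.76. The intensity of Pgam2 before background correction and scaling was 108 and 126 at E9.5 and 109 and 103 at E13.5. The rise of Pgam2 thus appears only after those steps.

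Pgk1, phosphoglycerate kinase, read 13.23 and 13.39 at E9.5 and 12.77 and 12.53 at E13.5, with no overlap. It fell by 0.87 (SE 0.258, adjusted p 0.0185), and a second probe gave -0.76 (0.305, not called). The call was lost with cyclic loess (-0.55), no batch term (-0.66), BeadChip as a random block (-0.43), in batches 2 and 3 alone (-0.87), with the 4 arrays of fewest detected probes left out (-0.54), and without E9.5 CNH replicate 1 (-0.96) or 2 (-0.79) or E13.5 CNH replicate 2 (-0.54), and without E13.5 CNH replicate 1 it was -1.31. Pfkfb3 was called lower (adjusted p 0.0103) although it was undetected on all 4 arrays (5.61 and 6.19 at E9.5, 4.90 and 4.58 at E13.5), so no fold is given. That call was lost in 6 of 12 settings: cyclic loess (a fitted difference of -0.37), an offset of 100 (-0.32), no background correction (-0.53), BeadChip as a random block (-0.74), batches 2 and 3 alone (-0.99) and array weights (-0.97). It was also lost without E9.5 CNH replicate 2 (-0.70). A second probe of Pgam1 was called at -2.40 (0.000423), while its representing probe was not (-1.24, 0.201).

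**Figure D4:**
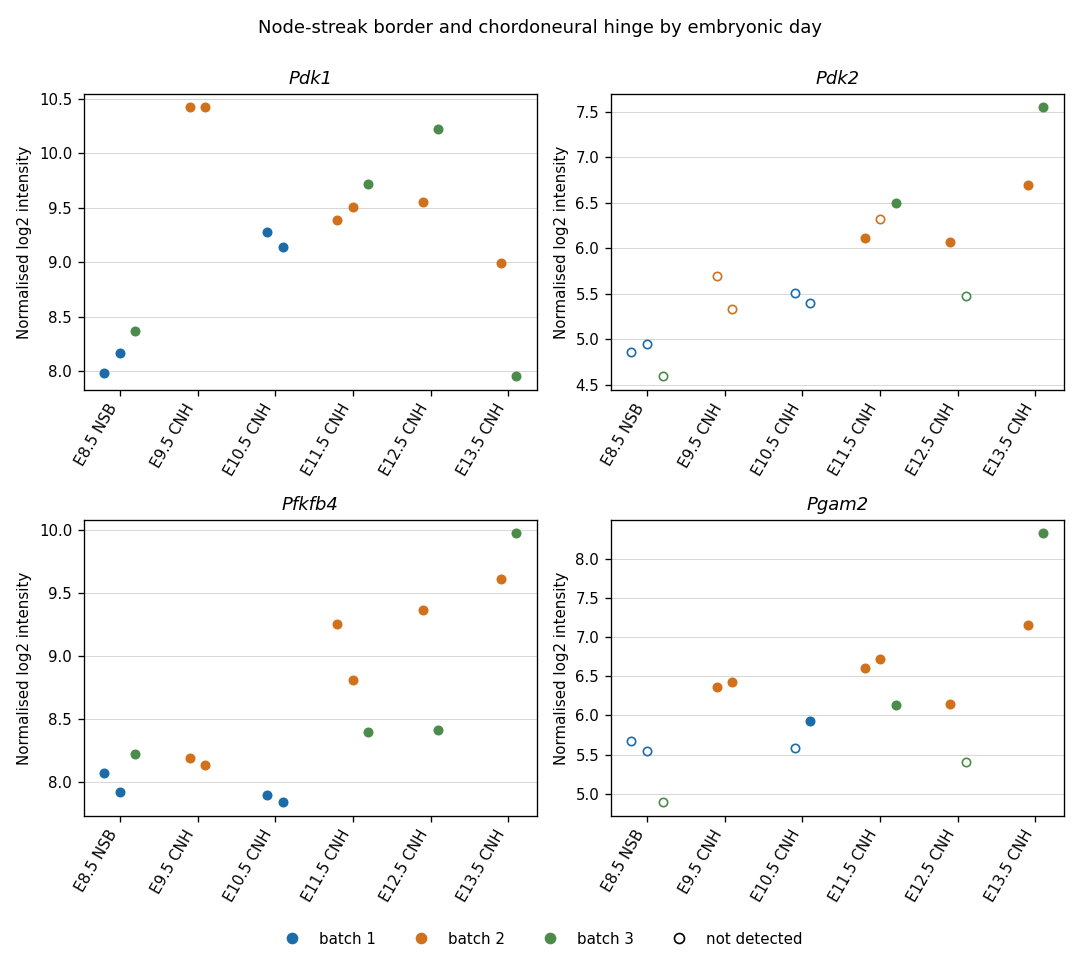
Log2 intensity of Pdk1, Pdk2, Pfkfb4 and Pgam2 in each array of E8.5 NSB and of the hinge by embryonic day, with open points where the probe was undetected. Pdk1 is 10.42 in both arrays at E9.5 and 8.99 and 7.95 at E13.5.

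Other tissues also moved between E9.5 and E13.5 in the hinge. Of 5 surface ectoderm genes 3 were higher (Krt14 at least 26.5-fold, Trp63 at least 8.03-fold, Cldn4 by 4.03 on the log2 scale), with sums of 296 and 320 at E9.5 and 4210 and 4260 at E13.5, where the probe of Krt14 was brightest, while Krt15 was undetected on all 4 arrays. Of 3 endothelial genes 3 were higher (Pecam1 at least 2.81-fold, Cdh5 at least 2.59-fold, Tek at least 1.64-fold), with sums of 107 and 141 against 605 and 575. Of 4 skeletal muscle genes, Tnnt1 was higher (1.59) and Myog lower (-1.20), with sums of 462 and 470 against 703 and 2070, and Acta1 was undetected on all 4 arrays. Of 6 blood genes, Hbb-b1 was higher (3.44) and Hbb-bh1 lower (-3.62), with sums of 37300 and 37800 against 61600 and 23200. Their part in the differences of Pgam2, Pfkfb4, Pdk1 and Pdk2 was not tested.

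Around the pathway at E13.5, counts of called genes are to be read against the 23.0% of all tested probes called in this comparison. Of 14 tricarboxylic acid cycle genes, 3 were lower (Suclg2 -1.66, Sdhb -0.79, Cs -0.75). Of 8 pentose phosphate genes, Rpe (1.44) and Taldo1 (0.74) were higher and G6pdx (-1.16) lower. Of 7 growth regulators, Txnip was higher (1.36) and Mycl1 (-1.94), Myc and Prkaa1 lower, the last 2 undetected at E13.5, and of 14 low-oxygen targets 1 was higher, Bhlhe40 (1.08).

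Each E8.5 region was compared with the mean of the other 4 to ask whether any part of the streak and epiblast stands apart. In St5, 1 of the 29 genes was called, against 5.47% of all tested probes, with medians of 0.06 and 0.00. Slc2a1 read 13.47 and 13.56 there and between 14.30 and 14.63 in the other 10 arrays. Both St5 arrays were below all 10, and it fell by 0.93 (SE 0.201, adjusted p 0.00408), or 1.91-fold. The call was lost with cyclic loess (-0.80) and without St5 replicate 1 (-0.89). A dim probe of Pfkp was called at 0.87 (0.0373), and its representing probe was not (1.48, 0.217).

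In batch 1 alone, 3 of the 29 were called in St5 against RN, NSB and St1, against 13.7% of all tested probes. Slc2a1 was lower (-0.96, adjusted p 2.06e-05), Pfkfb4 lower (-0.60, 0.000283), and Pfkp higher (1.59, 9.29e-06). Pfkp read 7.75 and 7.83 in St5, 6.48 and 6.66 in RN, 5.77 and 6.29 in NSB and 5.85 and 6.14 in St1. Both St5 arrays were above the other 6. Summed endothelial markers were 430 and 499 in St5 and 71.1, 93.6 and 124 (lowest, median, highest) in the other 10 arrays, and those of the posterior streak (Tbx4, Bmp4) 6540 and 8340 against 267, 460 and 1580. Their part was not tested. Of the 14 low-oxygen targets, Egln3 (1.81), P4ha2 (1.48) and Vegfa (1.35) were higher and Ddit4 (-1.57) lower in St5. These calls are to be read against the share of all tested probes called in St5. That share was 5.47% in the fit of all arrays and 13.7% in batch 1 alone.

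By limma, 0 of the 29 genes were called in each of the other E8.5 regions. In RN the share of all tested probes was 2.25% and 1 gene had an unadjusted p under 0.05, Aldoc (1.10, adjusted p 0.0595). In NSB the share was 2.18%, in CLE 1.01% and in St1 0.451%, with 0 genes at an unadjusted p under 0.05 in each. The medians over the 29 genes were 0.07 in RN, -0.08 in NSB, 0.07 in CLE and -0.13 in St1. The RN count was 1 without P replicate 1 or 2, E13.5 CNH replicate 1 or 2, CLE replicate 2, or PP replicate 1 or 2.

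Batch 1 alone gave a few calls in these regions. In RN 1 of the 29 was called (7.01% of all tested probes): Aldoc read 9.12 and 8.47 in RN, 8.31 and 7.90 in NSB, 7.61 and 7.24 in St1 and 7.60 and 7.57 in St5. Both RN arrays were above the other 6, and the difference was 1.09 (SE 0.19, adjusted p 0.00269). In NSB 1 was called (4.29%), Pfkp (-0.75, adjusted p 0.00812), and in St1 2 (5.86%), Pfkp (-0.80, 0.00409) and Aldoc (-0.73, 0.0294). For Pfkp the NSB and St1 arrays overlapped, and all were below RN and St5. Blood markers were higher in RN for 3 of 6 genes (Hbb-bh1 3.69), and their part was not tested.

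At E7.5, A was compared with P, the anterior with the posterior part of the embryo. Of the 29 genes 1 was called, against 2.73% of all tested probes, with medians of -0.01 and 0.04. Pgam2 read 7.11, 6.91 and 7.15 in A, detected on each, and 5.11 and 5.15 in P, undetected on both. The groups did not overlap, and Pgam2 was at least 2-fold higher in A, with a fitted difference of 2.03 (SE 0.42, adjusted p 0.00606). The call was lost in batches 2 and 3 alone (2.03) and without P replicate 1 (2.01), and the difference was 1.02 with no background correction and 0.89 with an offset of 100. Of 7 visceral endoderm genes, Apob was lower in A (-2.14) and 4 had an unadjusted p under 0.05 (median -1.44), with sums of 2100, 2160 and 10900 in A and 10800 and 6070 in P. Of 5 notochord and node genes Shh was higher (2.14) and T lower (-2.18), and the neural gene Nkx1-2, detected on 1 of 3 A arrays and on both P arrays, was lower. The part of these genes, or of the region markers given at the start, in the difference of Pgam2 was not tested.

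In PP against P, limma called 0 of the 29, against 0.792% of all tested probes. An unadjusted p under 0.05 was found for 6, all lower in PP: Slc16a3 (-1.94), Eno2, Eno3 (-0.87), Pkm2 (-0.72), Pfkm (-0.66) and Pfkl (-0.53). Eno2 was undetected on both PP arrays, so no fold is given for it. The medians were -0.31 and 0.01, and the count was 1 without PP replicate 2. Summed visceral endoderm markers were 37700 and 18000 in PP and 10800 and 6070 in P, with 2 of 7 genes higher, and their part was not tested.

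The hinge was compared with the tissue behind it at E9.5, E10.5 and E11.5. Limma called 0 of the 29 genes in CNH minus P-CNH, against 0.599% of all tested probes, and 2 had an unadjusted p under 0.05, Aldoc (-0.47) and Pdk2. Because Pdk2 was undetected on most of these arrays, no fold is given for it. The medians were -0.07 and 0.00. Whether the difference changed from E9.5 to E11.5 was tested in the same fit, which called 0 genes (0.0276% of all tested probes), with 1 at an unadjusted p under 0.05, Pfkfb3 (adjusted p 0.606).

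At E10.5 in batch 1 alone, 4 of the 29 were called, all lower in CNH than in P-CNH, against 2.58% of all tested probes. Aldoc read 7.88 and 7.47 in CNH and 8.94 and 8.67 in P-CNH, Pdk1 9.28 and 9.14 against 9.83 and 10.03, and Pgm2 12.29 in the lower array (mean of both 12.40) against 13.14 and 12.92. None of the 3 overlapped. The differences were -1.13 for Aldoc (SE 0.232, adjusted p 0.0249), -0.72 for Pdk1 (SE 0.139, adjusted p 0.0176) and -0.63 for Pgm2 (adjusted p 0.0269). Pfkp was also called (adjusted p 0.0301), undetected on both CNH arrays and detected on both P-CNH arrays (6.05 and 6.33). In the fit of all arrays none of these 4 was called at E10.5 (Aldoc adjusted p 0.47, Pdk1, Pgm2 and Pfkp adjusted p 1), with the same differences. At E9.5 and E11.5 Pdk1 read 10.42 and 10.42 against 10.07 and 10.56, and 9.39, 9.51 and 9.72 against 8.40 and 10.05, so that the groups overlapped on both days, and Pgm2 overlapped on both days as well. Aldoc read 7.46 and 7.64 against 7.86 and 8.29 at E9.5, lower in CNH with no overlap, and 8.72, 8.79 and 9.09 against 9.06 and 9.31 at E11.5, where the groups overlapped.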

How the data were processed

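The deposited table holds bead intensity and a detection p-value for 45281 probes on 36 arrays, not normalised by the authors; for their own results the authors used the lumi package, adjustment for batch and limma. Here intensities were background corrected with normexp (offset 16) and quantile normalised with limma 3.58.1 (R 4.3.3), 21712 probes with a detection p under 0.01 on at least 1 array were kept, and limma was fitted to all of them with 16 regions and 3 batches as terms (18 residual degrees of freedom). Tests were two-sided and moderated, and adjusted by the method of Benjamini and Hochberg over all kept probes. The fit was also run on simulated data with planted differences and independent noise of equal spread on every array. That run cannot check the p-values where the spread differs between arrays or arrays of a BeadChip vary together. Further fits used batch 1 alone or batches 2 and 3 alone. A gene with several kept probes is given by its probe of highest mean; 11 genes had several. Up to 3 called genes per direction and the 5 genes with the largest F are described in full, other genes by counts; probes of the same gene that differ in call are named. Batch 1 members outside that rule were named after their values were seen. The members and lists were chosen with earlier results of these data known. Alternatives changed the background correction, offset, scaling, batch term, filter, covariates and blocks. Array weights and leaving out the 4 arrays with fewest detected probes were chosen after seeing the data. Figures were drawn with matplotlib 3.10.9.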

Additional observations from a re-analysis of the deposited data

How the results depend on the processing

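Each count of called genes, and each called difference described in full, was recomputed with 1 choice changed at a time, and none of these differences reversed; differences that were not called were not followed. The numbers below are counts of the 29 genes called, for the comparisons whose count moved by more than 1.5 times; E7.5 means E7.5 minus E8.5, E11.5, E12.5 and E13.5 mean that hinge minus the E9.5 hinge, and a region alone means that region against the others of E8.5. Unless stated, the cause was not tested. Except for batch 1 alone, the share of all tested probes called in each alternative setting is not given here. A count that moved may thus follow calls over all probes, and it is not read as a result about these genes.

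With no background correction the counts were 2 at E11.5, 1 at E12.5 and 1 in RN, and with an offset of 100 they were 1 at E12.5 and 1 in RN. Cyclic loess gave 1 in E10.5 CNH minus NSB, 1 at E12.5, 2 at E13.5, 1 in RN and 0 in St5. With no batch term there were 3 in E7.5, 4 in E9.5 CNH minus NSB and 3 in CLE. With batch subtracted before the fit there were 8 in tail bud minus E8.5, 7 in E7.5, 10 in E9.5 CNH minus NSB, 2 at E11.5, and 1 each at E12.5, in RN, in CLE and in PP minus P. With BeadChip as a random block (consensus correlation 0.483) there were 1 in E7.5, 4 in E9.5 CNH minus NSB, 0 at E11.5, 2 at E13.5 and 1 in RN.

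With detected probes per array added as a covariate there were 3 in E7.5, 5 in E9.5 CNH minus NSB, 3 at E11.5, 1 at E12.5 and 1 in RN. With the replicate block there were 2 in E7.5, 5 in E9.5 CNH minus NSB and 0 at E11.5. Replicate numbers were not shown to pair arrays across regions: of 120 pairs of regions, the correlation of same-numbered arrays had a median of 0.0533 and ran from -0.663 to 0.606. In batch 1 each replicate number is also a BeadChip, and there the 15 pairs had a median of 0.0906 (-0.0134 to 0.391, 7 over 0.1). The fits to batch 1 alone have no BeadChip term. Counting every kept probe in place of genes gave 5 probes of 4 genes in E9.5 CNH minus E7.5 P and 2 probes of 2 genes in St5.

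Batch 1 alone changes the regions too, since CLE drops out of the E8.5 means and CNH minus P-CNH is then E10.5 only. It gave 6 in E10.5 CNH minus NSB, 1 in RN, 1 in NSB, 2 in St1, 3 in St5 and 4 in CNH minus P-CNH. Batches 2 and 3 alone, with fewer arrays, gave 1 in E7.5, 1 in E9.5 CNH minus E7.5 P, 0 at E11.5, 3 at E13.5 and 0 in A minus P.

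The next settings were chosen after seeing the data. Array weights gave 22 genes varying over the regions, 8 in tail bud minus E8.5, 4 in E7.5, 5 in E9.5 CNH minus E7.5 P, 9 in E9.5 CNH minus NSB, 6 in E10.5 CNH minus NSB, 5 at E11.5, 2 at E12.5, 1 each in RN, NSB and St1, 3 in St5 and 2 in PP minus P. Without the 4 arrays with the fewest detected probes (E13.5 CNH replicate 2, CLE replicates 1 and 2, E11.5 P-CNH replicate 1) there were 4 in E7.5, 5 in E9.5 CNH minus E7.5 P, 9 in E9.5 CNH minus NSB, 5 in E10.5 CNH minus NSB, 4 at E11.5, 2 at E12.5, 1 each in RN, NSB, PP minus P and CNH minus P-CNH, and 2 each in CLE and A minus P.

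Leaving out 1 array at a time gave 5 to 7 in tail bud minus E8.5, 0 to 1 in E7.5, 0 to 4 in E9.5 CNH minus E7.5 P, 0 to 4 in E9.5 CNH minus NSB, 2 to 5 in E10.5 CNH minus NSB, 0 to 2 at E11.5, 0 to 1 at E12.5, 3 to 10 at E13.5, 0 to 1 in RN, 0 to 1 in St5, 0 to 1 in A minus P and 0 to 1 in PP minus P. A region left with 1 array is assumed to vary like the others. Without NSB replicate 3 there was no value for 8 comparisons: tail bud minus E8.5, E7.5, E9.5 CNH minus NSB, and RN, NSB, CLE, St1 and St5 against the others, since no region then joins batch 1 to the rest.

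The signal over background of an array ran from 7.818 to 10.1 in batch 1, from 2.28 to 11.33 in batch 2 and from 2.332 to 15.12 in batch 3. The called differences of the dim probes Pdk2, Pgam2 and Pfkfb3 were smaller with no background correction and with an offset of 100. With 2 or 3 arrays in a region, the number of arrays limits the precision.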
